A study of Mus musculus with 6 samples.

Results

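The genes followed here are 10 genes of the major histocompatibility complex (MHC) classes I and II and of their expression: B2m, H2-K1, H2-D1, H2-T23, H2-Aa, H2-Ab1, H2-Eb1, Cd74, Tap1 and Ciita. They were chosen by symbol, with no threshold on a measured value, and all 10 were found among the 55487 genes of the deposited table. RNA was sequenced from vascular endothelial cells (VECs) sorted from P7.5 mouse retinas of 3 control and 3 Bmal1;CKO animals. Control animals were tdTomato FL/+;Pdgf-icreER and Bmal1;CKO animals were Bmal1 FL/FL;tdTomato FL/+;Pdgf-icreER, so both groups carried the Cre transgene and the reporter, on a C57BL/6 J background. Tamoxifen was given to all animals between P0.5 and P2.5 and activates the Cre recombinase that Pdgf-icreER expresses in endothelial cells together with GFP. Cells were sorted as GFP and tdTomato double positive, and the labels do not say whether retinas of several pups were pooled. The comparison asks how the transcripts of antigen presentation in the sorted cells differed between the genotypes after deletion of Bmal1, a transcription factor of the circadian clock, was induced in the endothelium.

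MHC class I molecules are found on nearly all nucleated cells, endothelium included, and show peptides of the cell's own proteins to CD8 T cells. Their heavy chain pairs with beta-2 microglobulin and receives its peptide in the endoplasmic reticulum from the transporter TAP. MHC class II molecules show peptides of engulfed material to CD4 T cells and are largely kept to professional antigen-presenting cells, where the coactivator CIITA switches their genes on. In the healthy retina class II is scarce, resting microglia carry little of it, and interferon gamma raises both classes.

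The libraries held 71145068 to 104017800 reads on genes, and the members took 0.250% to 0.439% of them. Libraries are assigned to a genotype by the name of their column in the table. Levels are given as normalized counts, the reads of a gene divided by the size factor of its library. The targeted gene, Bmal1 (listed as Arntl), had 2706 ± 915 (SD, n = 3) normalized counts in the control libraries, against 2314 ± 492 (SD, n = 3) in those of Bmal1;CKO, with overlap. This count covers the whole gene, and reads on the deleted part alone were not examined. By droplet digital PCR of sorted endothelial cells, the paper reports significantly less Bmal1 transcript in the mutant than in the control. All 12 endothelial markers had 10 reads or more in every library. The 2 most abundant of them, Cldn5 and Esam, were at 60099 to 201094 and 16294 to 41691 normalized counts. Markers of microglia and macrophages were present beside them, with all 12 at 10 reads or more in every library and a summed level 7.98 to 26.5 times that of the 12 endothelial markers. Control library 1 stood apart: among genes with a mean of 100 to 500 normalized counts in the other libraries, 23.1% had 3 reads or fewer in it, against 0.648% to 4.83% in the other libraries. Values of members that rest on low counts are therefore also given without it.

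In the GENCODE M21 annotation of GRCm38, 7 of the 10 genes lie on chromosome 17, within the MHC. From the lowest coordinate upward these are H2-K1 (ENSMUSG00000061232, 33996017 to 34000347, reverse strand), Tap1 (ENSMUSG00000037321, 34187553 to 34197225, forward), H2-Ab1 (ENSMUSG00000073421, 34257689 to 34269419, forward) and H2-Aa (ENSMUSG00000036594, 34282744 to 34287823, reverse). They continue with H2-Eb1 (ENSMUSG00000060586, 34305867 to 34316674, forward), H2-D1 (ENSMUSG00000073411, 35262730 to 35267499, forward) and H2-T23 (ENSMUSG00000067212, 36029773 to 36032855, reverse). B2m (ENSMUSG00000060802) lies on chromosome 2 from 122147686 to 122153083, Ciita (ENSMUSG00000022504) on chromosome 16 from 10480059 to 10528418 and Cd74 (ENSMUSG00000024610) on chromosome 18 from 60803848 to 60812652, each on the forward strand. All 10 are annotated as protein coding.

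Class I genes resemble each other, and of the stretches of 100 bases in the annotated transcripts 3.59% of H2-D1, 3.15% of H2-T23 and 0.957% of H2-K1 also occur in other genes. The share was 0% in B2m, Cd74, H2-Aa, H2-Ab1 and H2-Eb1. Tap1 shares 212 exonic bases with Psmb9 and Ciita 329 with Dexi, and whether reads were counted by strand is not given in the sources used here.

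Promoter sequences from RefSeq (GRCm38.p6) were matched for 7 of the 10 genes, and those of 5 are shown because they carry the shared control elements of the family. Each line gives the 200 bases that precede the RefSeq transcription start, on the strand of the gene. Capitals mark TGACG (the core of the X2 element, bound by CREB family factors), ATTGG or its complement CCAAT (the Y box, bound by NF-Y), AACNGATG (the X1 to X2 junction of class II genes), GGGANTCCC (a kappa B element) and GAAANNGAA (an interferon response core). The stretches lie at chr2:122147487-122147686 (B2m, forward strand), chr17:34000348-34000547 (H2-K1, reverse), chr17:35262894-35263093 (H2-D1, forward), chr17:34287824-34288023 (H2-Aa, reverse) and chr17:34305667-34305866 (H2-Eb1, forward).
B2m: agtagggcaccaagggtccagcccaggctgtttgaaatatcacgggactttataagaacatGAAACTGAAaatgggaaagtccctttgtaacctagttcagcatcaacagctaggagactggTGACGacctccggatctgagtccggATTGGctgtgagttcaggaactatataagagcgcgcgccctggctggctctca
H2-K1: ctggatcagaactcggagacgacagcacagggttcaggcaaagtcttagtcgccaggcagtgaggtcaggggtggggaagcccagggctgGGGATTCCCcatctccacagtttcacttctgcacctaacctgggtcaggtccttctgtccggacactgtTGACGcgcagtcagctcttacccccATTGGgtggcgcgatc
H2-D1: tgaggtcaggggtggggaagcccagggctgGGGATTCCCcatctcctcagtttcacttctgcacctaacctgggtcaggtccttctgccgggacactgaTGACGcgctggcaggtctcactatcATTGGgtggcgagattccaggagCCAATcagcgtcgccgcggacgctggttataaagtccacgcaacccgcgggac
H2-Aa: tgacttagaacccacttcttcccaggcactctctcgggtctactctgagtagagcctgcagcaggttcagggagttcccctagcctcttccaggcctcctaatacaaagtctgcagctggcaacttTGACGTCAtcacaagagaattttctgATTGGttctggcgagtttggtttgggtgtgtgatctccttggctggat
H2-Eb1: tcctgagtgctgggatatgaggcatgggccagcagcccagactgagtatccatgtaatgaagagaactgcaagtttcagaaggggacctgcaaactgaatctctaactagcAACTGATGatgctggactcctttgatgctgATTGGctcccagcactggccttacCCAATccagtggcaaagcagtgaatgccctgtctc

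Both strands of 32851 RefSeq promoters, from 250 bases before to 50 after the start, were searched for the same letters. TGACG was present in 20.8% of all promoters and in 5 of the 7 members with a promoter (B2m, H2-K1, H2-D1, H2-Aa and Tap1). ATTGG was present in 37.4% of all promoters and in all 7, the last of them being H2-T23. TGACG followed on the same strand by ATTGG, with 20 to 32 bases between their first letters, was found in 0.463% of promoters, among them B2m, H2-K1, H2-D1 and H2-Aa. AACNGATG before ATTGG at the same spacing was found in 0.0183% of promoters, and 4 genes of the lists used here had it: H2-Eb1, H2-Eb2, H2-DMb1 and H2-DMb2. GGGANTCCC occurred in 0.767% of promoters, with H2-K1 and H2-D1 among them, and GAAANNGAA in 8.56%, with B2m and H2-T23. The E-box CACGTG, the element to which BMAL1 and CLOCK bind, occurred in 7.15% of promoters and in 0 of the 7. A match describes letters only, and a missing match speaks of this window alone. H2-K1 and H2-D1 matched at 89.5% of the aligned bases of their promoters, with 214 identical and 25 different bases and 122 bases in gaps.

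Levels were compared between genes after division by the exonic length, in normalized counts per kilobase. B2m was the highest, with a mean of 114490.3 over the 6 libraries, followed by H2-D1 (50422), H2-K1 (9069) and H2-T23 (4031). The invariant chain Cd74 (2414) and the class II beta chain H2-Ab1 (2396) came next and could not be ordered, as each was above the other in 3 of the 6 libraries. Tap1 (434), H2-Eb1 (117), H2-Aa (58.9) and Ciita (1.63) closed the order. H2-D1 and H2-K1, and H2-Ab1 and Tap1, had ranges over the libraries that did not overlap. The remaining neighbours overlapped in range, although B2m was above H2-D1, H2-K1 above H2-T23, H2-T23 above Cd74 and H2-Eb1 above H2-Aa in 6 of 6 libraries, and Tap1 above H2-Eb1 and H2-Aa above Ciita in 5 of 6.

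**Figure D1:**
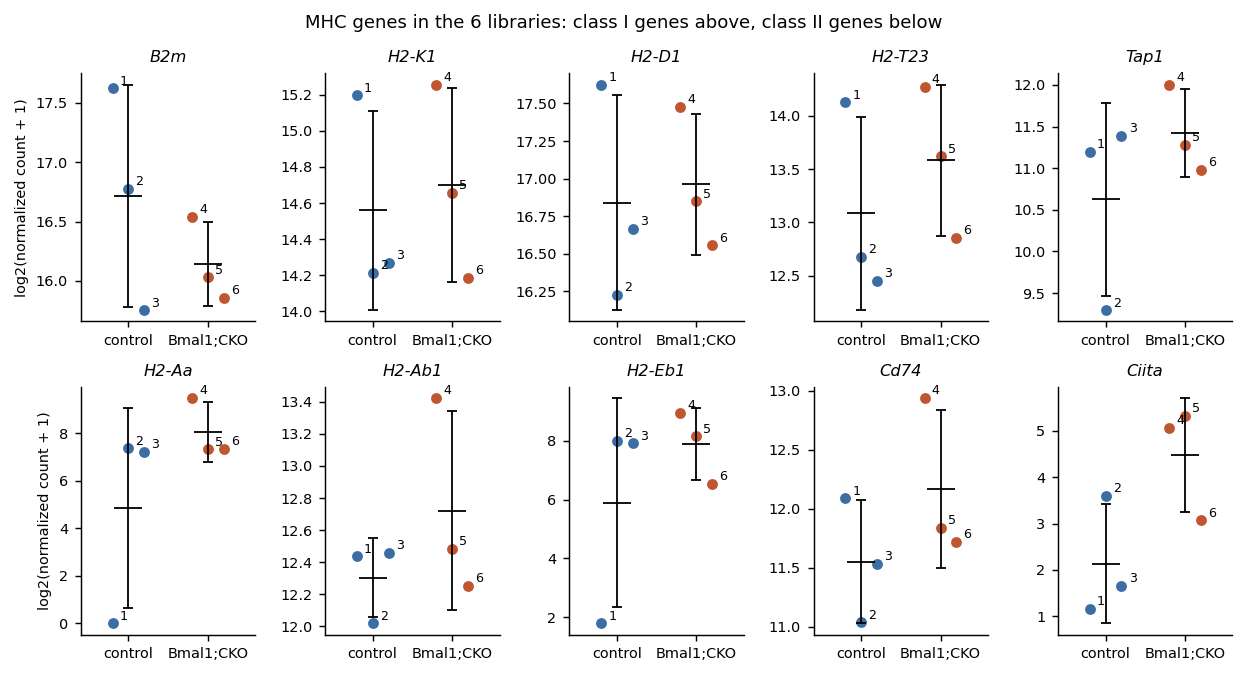
Levels of the 10 MHC genes in each library. The vertical axes give log2(normalized count + 1) and differ between panels. Points are libraries, with controls numbered 1 to 3 and Bmal1;CKO 4 to 6, and bars show the mean and SD of the log2 values of 3 libraries. The groups overlap in all 10 genes, and H2-Aa and H2-Eb1 are near 0 in control library 1 only.

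B2m encodes beta-2 microglobulin, the light chain of every class I molecule. It had 201623, 112286 and 55262 normalized counts in control libraries 1, 2 and 3, and 95197, 66977 and 59424 in Bmal1;CKO libraries 4, 5 and 6. Controls covered a wider range than the Bmal1;CKO libraries, which all fell within it. B2m was the one member with a lower mean of log2 values in Bmal1;CKO, with a log2 fold change of -0.57 (standard error 0.49, adjusted p = 0.883, limma-trend with Benjamini-Hochberg adjustment). Without control library 1 it was -0.12 and without control library 3 it was -1.06.

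H2-K1 and H2-D1 encode the classical heavy chains K and D, which present peptides to CD8 T cells. H2-K1 had 37550.4, 18989 and 19735 normalized counts in the control libraries and 39152, 25820.0 and 18624 in Bmal1;CKO. H2-D1 had 202290.2, 76687 and 104110.0 in control and 182695, 118029.8 and 96425 in Bmal1;CKO. Both genes were highest in control library 1 and Bmal1;CKO library 4, and the groups overlapped. The ratio of H2-D1 to H2-K1 per kilobase stayed between 4.60 and 6.14 in the 6 libraries. Log2 fold changes were 0.14 for H2-K1 (standard error 0.39, adjusted p = 0.946, limma-trend) and 0.12 for H2-D1 (standard error 0.46, adjusted p = 0.962, limma-trend). With 1 library left out, both ran through 0, from -0.14 to 0.46 for H2-K1 and from -0.19 to 0.51 for H2-D1.

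H2-T23 encodes the heavy chain of Qa-1, a nonclassical class I molecule that is read by inhibitory receptors of natural killer cells. Its values were 17889.9, 6558 and 5592 normalized counts in control and 19838, 12596 and 7397 in Bmal1;CKO. Control library 1 was again close to Bmal1;CKO library 4, far above the other controls. This gave a log2 fold change of 0.50 (standard error 0.52, adjusted p = 0.886, limma-trend), and 1.02 without control library 1, where the unadjusted p was 0.0329 and the adjusted p remained at 0.547 or above in every fit. Tap1 encodes a subunit of the TAP transporter. It had 2343, 627 and 2687 normalized counts in control and 4107, 2491 and 2020 in Bmal1;CKO, with control library 2 as the lowest value by far. Its log2 fold change of 0.80 (standard error 0.59, adjusted p = 0.883, limma-trend) was 0.13 without that library.

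H2-Aa and H2-Ab1 encode the alpha and beta chains of the class II molecule I-A. H2-Ab1 had 5543, 4145 and 5621 normalized counts in control and 10997, 5730 and 4875 in Bmal1;CKO. H2-Aa had 0, 163 and 147 in control and 713, 158 and 160 in Bmal1;CKO. Bmal1;CKO library 4 was the highest in both genes, and the remaining Bmal1;CKO libraries lay within or close to the range of control libraries 2 and 3. Although the products pair, H2-Ab1 was 22.8 to 56.5 times as high as H2-Aa per kilobase in the 5 libraries in which H2-Aa was detected. In control library 1, H2-Ab1 had 4505 reads and H2-Aa 0 reads, which allows up to 3 reads or 3.69 normalized counts (counting error only). This puts the ratio per kilobase at 2221 at least. The bound does not cover other losses in control library 1. There, 23.1% of genes with a mean of 100 to 500 normalized counts in the other libraries had 3 reads or fewer. The log2 fold change of H2-Ab1 was 0.42 (standard error 0.35, adjusted p = 0.883, limma-trend) and was 0.064 without Bmal1;CKO library 4. For H2-Aa the fitted value of 3.18 (standard error 1.98, adjusted p = 0.883, limma-trend) depends on the pseudocount because of the count of 0. It was 1.70 in edgeR with TMM scaling and 0.76 without control library 1.

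H2-Eb1 encodes the beta chain of the class II molecule I-E. It had 2.46, 254 and 239 normalized counts in control, the first from 2 reads, and 494, 282 and 92.3 in Bmal1;CKO. Control libraries 2 and 3 lay between Bmal1;CKO libraries 5 and 6. The log2 fold change of 1.98 (standard error 1.71, adjusted p = 0.883, limma-trend) was 0.78 in edgeR with TMM scaling and turned to -0.070 without control library 1. Its partner H2-Ea, which mice of this background do not express and which is named here for that role after its values were seen, had 0 reads in 5 libraries and 1 read in Bmal1;CKO library 6. Cd74 encodes the invariant chain, which guards the peptide groove of class II and escorts it to the endosome. It had 4351, 2104 and 2964 normalized counts in control and 7852, 3666 and 3379 in Bmal1;CKO. Bmal1;CKO library 4 was the highest, and the other libraries of that genotype lay inside the control range. Cd74 differed by 0.61 on the log2 scale (standard error 0.42, adjusted p = 0.883, limma-trend) and was 0.23 without Bmal1;CKO library 4. Cd74 and H2-Ab1 kept close to each other, with H2-Ab1 at 0.833 to 1.29 times Cd74 per kilobase.

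Ciita, the coactivator of class II transcription, was near the limit of detection. It had 1, 12 and 3 reads in control libraries 1 to 3 and 23, 45 and 9 in Bmal1;CKO libraries 4 to 6, which are 1.23, 11.1 and 2.14 against 32.3, 38.9 and 7.41 normalized counts. Bmal1;CKO libraries 4 and 5 were above every control, and library 6 was below control library 2. On the log2 scale the difference was 2.35 (standard error 1.29, adjusted p = 0.883, limma-trend). Of the 6 fits with a library left out, 3 had enough reads to test Ciita and gave 1.86 to 3.05. These were the fits without control library 1 (the lowest value), control library 3 and Bmal1;CKO library 6. Without control library 2, Bmal1;CKO library 4 or Bmal1;CKO library 5, Ciita had too few reads to be tested. All 3 fits therefore kept Bmal1;CKO libraries 4 and 5, and they cannot show whether the difference depends on either of them.

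Over all 20459 tested genes, those with 10 reads or more in at least 3 libraries, limma-trend called 0 genes at an adjusted p under 0.05 (0%), and 0 of the 10 members. At an unadjusted p under 0.05 it found 1007 genes (4.92%), and again 0 members. These 1007 genes were 648 higher (3.17% of those tested) and 359 lower (1.75%) in Bmal1;CKO, a split of 64.3% higher that was 50.1% in edgeR with TMM scaling and 44.0% in DESeq2. DESeq2 called 67 genes, and the smallest adjusted p of a member in it was 0.990. Groups did not overlap in 6.62% of tested genes in the direction of higher and in 4.54% in the direction of lower in Bmal1;CKO, against 0 of the 10 members. Two-sided exact permutation tests of 3 libraries against 3, whose smallest possible p is 0.1, gave p = 0.2 for Ciita and 0.3 to 0.8 for the other members. By direction alone, 9 of the 10 members were higher in Bmal1;CKO (median 0.56 on the log2 scale), against 56.6% of all tested genes with a median of 0.11. The class I genes had 4 higher and 1 lower (median 0.14), and the class II genes 5 higher and 0 lower (median 1.98, and 0.78 in edgeR with TMM scaling). Without control library 1 the class II median was 0.76 and 8 of the 10 members were higher. Without Bmal1;CKO library 4 it was 0.84 for the 4 class II genes that could be tested, the class I median was -0.14, and 6 of 9 members were higher. The 95% interval of the log2 fold change ran from -0.40 to 1.23 for H2-Ab1, the narrowest of the 10, and from -1.41 to 7.78 for H2-Aa, the widest. Differences inside the interval of a gene are compatible with its values at this spread between libraries. The absence of a call therefore does not show that a gene was unchanged.

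**Figure D2:**
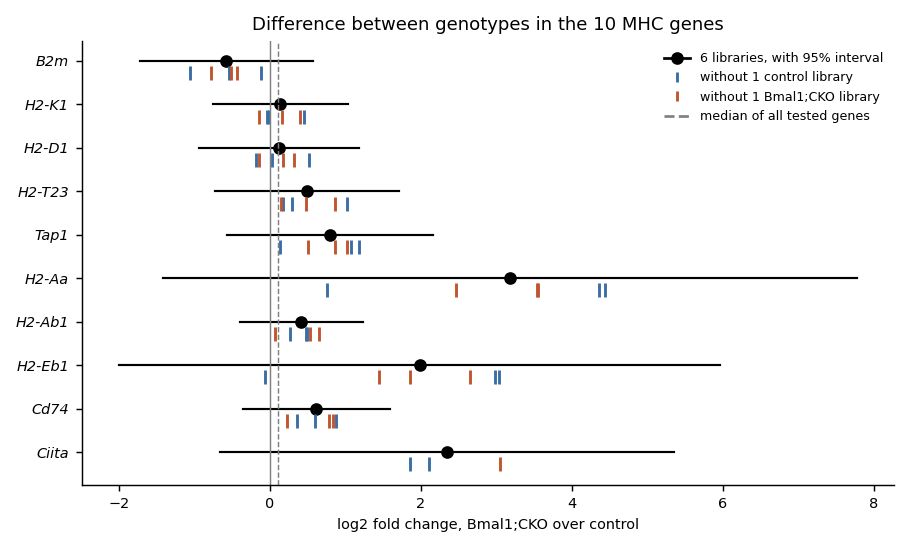
Log2 fold change of each MHC gene, Bmal1;CKO over control, from limma-trend. Black points and lines give the value and 95% interval with 6 libraries, and ticks below them the value with 1 library left out, colored by the genotype of that library. Every interval includes 0, and the ticks of H2-Aa and H2-Eb1 nearest to 0 are those without control library 1.

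Of 25 other class I and class I-like genes in the table, 3 had 0 reads in all libraries (Azgp1, H2-M1 and H2-M9) and 16 could be tested, with 8 higher and 8 lower in Bmal1;CKO (median 0.06, and from -0.15 without control library 2 to 0.47 without Bmal1;CKO library 4). Of the 16, 1 was higher and 0 were lower at an unadjusted p under 0.05, against 3.17% and 1.75% of all tested genes. Groups did not overlap in 2 of the 16, both higher. Among all tested genes, 6.62% did not overlap in that direction. Among those with too few reads to test, H2-M2 (1, 0 and 1 reads in control, 3, 63 and 54 in Bmal1;CKO) and H2-T10 (4, 4 and 3 against 6, 13 and 14) also did not overlap. For H2-T10, 28.1% of the stretches of 100 bases occur in other genes, so its reads are uncertain. The gene at an unadjusted p under 0.05 was Fcgrt, the heavy chain of the neonatal Fc receptor, which pairs with B2m and spares IgG from degradation. Fcgrt had 19311, 12176 and 17535 normalized counts in control and 37395, 33830.1 and 22192 in Bmal1;CKO. Each Bmal1;CKO library was above each control, the log2 fold change was 0.92 (standard error 0.31, unadjusted p = 0.0175, adjusted p = 0.883, limma-trend), and it stayed between 0.72 and 1.15 with 1 library left out. H2-Q4, a nonclassical gene of the Q region, also did not overlap, at 23.4, 83.5 and 107 in control and 295, 153 and 143 in Bmal1;CKO (log2 fold change 1.63, standard error 0.88, adjusted p = 0.883, limma-trend, and 0.97 without control library 1). Of the stretches of 100 bases in H2-Q4, 14.1% occur in other genes, so its reads are uncertain. Hfe, an iron regulator that also pairs with B2m, was the other of the 2 most abundant genes beside Fcgrt, with a log2 fold change of -0.13 (standard error 0.30).

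Peptide supply and loading for class I was represented by 13 genes, all tested, of which 9 were higher and 4 lower (median 0.14), with 0 at an unadjusted p under 0.05. The median turned to -0.11 without control library 2, -0.035 without control library 3 and -0.15 without Bmal1;CKO library 4, and was 0.35 without control library 1 and 0.32 without Bmal1;CKO library 6. Groups did not overlap in 1 gene that was higher and in 2 that were lower, against 6.62% and 4.54% of all tested genes. The higher one was Tapbpl, a peptide editor of class I, at 3799, 986 and 3147 normalized counts in control and 4935, 4390.3 and 3948 in Bmal1;CKO (log2 fold change 0.95, standard error 0.50, adjusted p = 0.883, limma-trend, and 0.35 without control library 2). The lower ones were both chaperones that fold the heavy chain along with many other glycoproteins. Canx, calnexin, had 17031, 17305 and 21033 in control and 11359, 11996 and 15741 in Bmal1;CKO (log2 fold change -0.51, standard error 0.24, adjusted p = 0.883, limma-trend). Pdia3, the disulfide isomerase ERp57, had 34143, 29192 and 30093 in control and 24756, 28059 and 26045 in Bmal1;CKO (log2 fold change -0.24, standard error 0.22, adjusted p = 0.883, limma-trend). Calreticulin, Calr, the most abundant of the list together with Pdia3, had a log2 fold change of -0.18 (standard error 0.24). Tap1 was 0.260 to 0.745 times as high as Tap2, the other subunit of the transporter, per kilobase.

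For class II, 9 further genes of the alpha and beta chains and of peptide loading were tested, with 8 higher and 1 lower (median 0.34, and 0.075 without control library 2, 0.76 without control library 1 and 0.54 without Bmal1;CKO library 6). At an unadjusted p under 0.05, 2 were higher and 0 lower, against 3.17% and 1.75% of all tested genes. The same 2 did not overlap, against 6.62% of all tested genes in that direction. H2-DMb2, a beta chain of the peptide exchanger H2-DM, had 273, 227 and 134 normalized counts in control and 726, 505 and 671 in Bmal1;CKO. Each Bmal1;CKO library was well above each control, with a log2 fold change of 1.62 (standard error 0.52, unadjusted p = 0.0157, adjusted p = 0.883, limma-trend) and 1.33 to 1.84 with 1 library left out. Of its stretches of 100 bases, 10.3% occur in other genes, chiefly H2-DMb1. H2-DMb1 was 7.26 to 31.9 times as high per kilobase and had a log2 fold change of 0.62 (standard error 0.54). H2-Oa, a chain of H2-O, which restrains H2-DM, had 934, 960 and 776 in control and 2402, 1573 and 1238 in Bmal1;CKO (log2 fold change 0.92, standard error 0.36, unadjusted p = 0.0365, adjusted p = 0.883, limma-trend). The most abundant genes were Ctss, cathepsin S, which trims the invariant chain, at 186161 to 381838 normalized counts and Lgmn, legumain, at 24561 to 56281, with log2 fold changes of 0.27 (standard error 0.44) and 0.30 (standard error 0.37).

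Among 19 tested regulators of MHC transcription 12 were higher and 7 lower (median 0.12, and 0.040 without control library 2 and 0.076 without Bmal1;CKO library 4), with 0 at an unadjusted p under 0.05. Nfyb was the 1 gene without overlap, against 4.54% of all tested genes in the direction of lower. Nfyb encodes a subunit of NF-Y, which binds the Y box capitalized in the printed promoters. It had 1478, 2220 and 1578 normalized counts in control and 858, 1300 and 1103 in Bmal1;CKO (log2 fold change -0.69, standard error 0.34, adjusted p = 0.883, limma-trend). The most abundant regulators were Irf8, a factor of the myeloid lineage, with a log2 fold change of 0.60 (standard error 0.36), and Ifngr1, a chain of the interferon gamma receptor, with 0.36 (standard error 0.31). Interferon gamma itself, Ifng, had 0 reads in 5 libraries and 1 read in Bmal1;CKO library 6. Nlrc5, the class I counterpart of Ciita, and Ifng were named for their roles after their values were seen. Nlrc5 had 3.69, 55.7 and 0 normalized counts in control and 253, 85.5 and 5.77 in Bmal1;CKO, with groups that overlapped. Costimulatory genes for T cells were tested for 8 members, with 6 higher and 2 lower (median 0.60). The median was 0.41 without control library 3 and 0.86 without Bmal1;CKO library 4. At an unadjusted p under 0.05, Cd83 was higher (log2 fold change 0.83, standard error 0.35) and Cd40 lower (-0.80, standard error 0.33). Over all tested genes, the shares at that threshold were 3.17% higher and 1.75% lower. Cd83 and Cd40 both had an adjusted p of 0.883 in limma-trend and groups that overlapped. Cd86, the most abundant beside Cd83, had 0.28 (standard error 0.26).

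**Figure D3:**
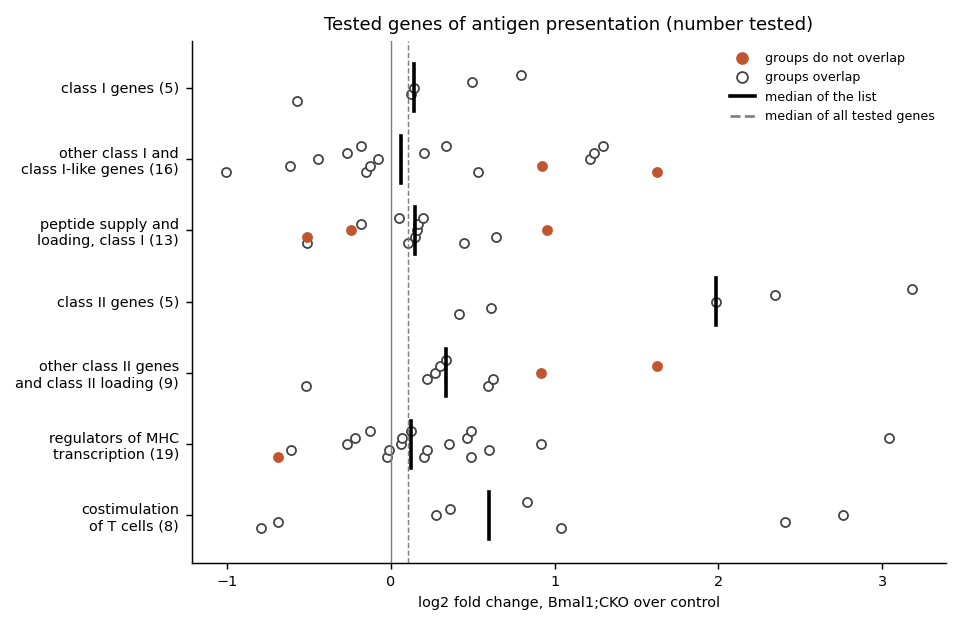
Log2 fold change, Bmal1;CKO over control, of every tested gene of antigen presentation, by list, with the number tested in parentheses. Filled points are genes whose 3 control and 3 Bmal1;CKO libraries do not overlap, vertical bars are list medians, and the dashed line is the median of all tested genes (0.11). None of the filled points belongs to the 10 members, and the median of the class II genes (1.98) lies farthest to the right.

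Bmal1;CKO library 4 held the highest value in 7 of the 10 members and control library 1 in 2, B2m and H2-D1. Control library 1 also held the lowest value in 3 members (H2-Aa, H2-Eb1 and Ciita), and control library 2 in 4 (H2-D1, H2-Ab1, Cd74 and Tap1). Over the 6 libraries, the z score of H2-K1, H2-D1 and H2-T23 followed the mean z score of the class I genes with Pearson coefficients of 0.989, 0.987 and 0.954, whereas B2m (0.613) and Tap1 (0.635) followed it less closely. These points share their libraries and each gene is part of the mean, so the coefficients are a description. Outside the lists used here, the genes most like the class I mean, among 15485 with a mean of at least 100 normalized counts, were Mpv17l2 (0.997), Gm11434 (0.997), Rbfa (0.996), Sdhb (0.995) and Wdr18 (0.994). For the class II mean they were Gm10605 (0.991), Nudt6 (0.990), Mlycd (0.984), Tamm41 (0.984) and Zkscan14 (0.978). The class II genes themselves followed their mean less closely, from 0.605 for Cd74 to 0.828 for Ciita. Genes outside the lists were picked as the highest of 15485 over 6 libraries, so high coefficients come in part from that selection and carry no test.

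**Figure D4:**
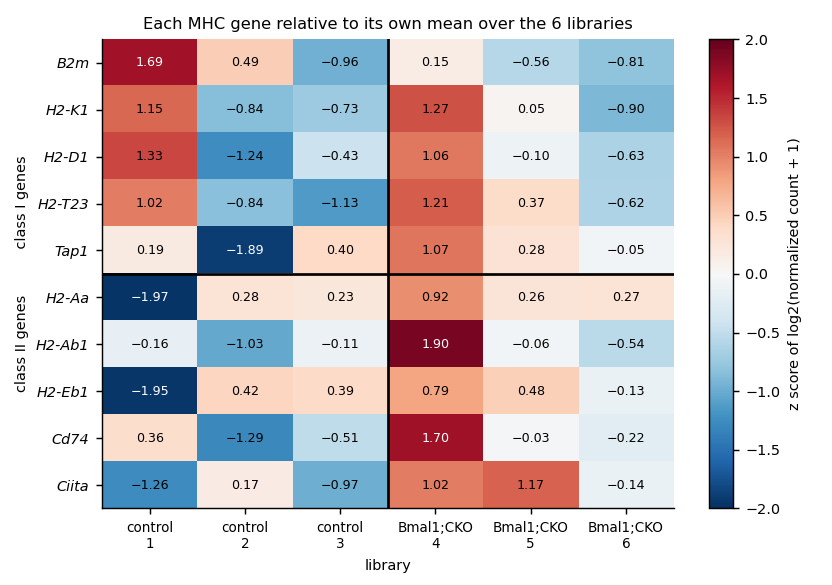
Each MHC gene relative to its own mean over the 6 libraries, as the z score of log2(normalized count + 1). Columns are libraries, with control on the left, and genes run from class I at the top to class II. H2-K1, H2-D1 and H2-T23 are high in control library 1 and Bmal1;CKO library 4, and H2-Aa and H2-Eb1 reach -1.97 and -1.95 in control library 1.

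Summed over the 5 class I genes, the level was 461696, 215147 and 187385 normalized counts in control and 340989, 225913 and 183890.4 in Bmal1;CKO. The 5 class II genes summed to 9897, 6678 and 8973 in control and 20088, 9876 and 8514 in Bmal1;CKO. Both sums were led by control library 1 or Bmal1;CKO library 4. B2m and H2-D1 made up most of the class I sum, and H2-Ab1 and Cd74 most of the class II sum. The sums and the ratios below therefore do not stand for each of the 5 genes. The 12 markers of microglia and macrophages, with C1qb and C1qc the most abundant, summed to 1607427 to 4687812 in control and to 2245217 to 4506987 in Bmal1;CKO, and the same 2 libraries were the highest. Of these markers, 10 of 12 were higher in Bmal1;CKO (median log2 fold change 0.34), with 0 at an unadjusted p under 0.05. The median was 0.061 without control library 2, 0.12 without Bmal1;CKO library 4, 0.21 without control library 3 and 0.68 without control library 1, and 0.22 in edgeR with TMM scaling. The 12 endothelial markers summed to 183928 to 366843 in control and to 113750.0 to 234134 in Bmal1;CKO, and all 12 were lower (median -0.50), with 0 at an unadjusted p under 0.05. That median was -0.16 without control library 1, -0.16 without Bmal1;CKO library 5 and -0.86 without Bmal1;CKO library 6. Per 1000 normalized counts of the microglial sum, the class I sum was 98.5, 134 and 100.1 in control and 75.7, 74.8 and 81.9 in Bmal1;CKO, which did not overlap. These ratios were computed after the values were seen and carry no test. The class II sum was 2.11, 4.15 and 4.79 in control and 4.46, 3.27 and 3.79 in Bmal1;CKO on the same scale, with overlap. Per 1000 of the endothelial sum, the class I sum was 1259, 1068 and 1019 in control and 1664, 1986 and 785 in Bmal1;CKO, with 2 Bmal1;CKO libraries above and 1 below all controls. The class II sum was 27.0, 33.2 and 48.8 in control and 98.0, 86.8 and 36.4 in Bmal1;CKO per 1000 of the endothelial sum, with overlap. In bulk RNA of sorted cells, fewer cells of a type and less RNA per cell cannot be told apart, and the part of microglial RNA in the levels of the MHC genes was not tested.

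Markers of other immune cells summed to less than those of microglia and macrophages in each library. The 9 dendritic cell markers summed to 19592 to 40139 normalized counts in control and to 30765 to 45361 in Bmal1;CKO, of which Siglech and Batf3, both also found in microglia or other myeloid cells, took the largest part. Cd209a and Ccr7 had at most 1 read in any library. In this list Flt3 was at 0 to 48.6 normalized counts in control and did not overlap with Bmal1;CKO, at 80.3 to 304 (log2 fold change 3.73, unadjusted p = 0.0476, adjusted p = 0.883, limma-trend, and 2.09 on the log2 scale without control library 1). The share without overlap in that direction was 6.62% of all tested genes. B cell markers summed to 21511 to 52003 in control and to 39810 to 81243 in Bmal1;CKO through Ighm and Cd79b, while Ms4a1 had 0 reads in all libraries. Of the 6 B cell markers, 2 had 10 reads or more in every library, so the sum does not stand for the list. Border macrophage markers, led by Stab1 and Pf4, summed to 2577 to 4918 in control and 3028 to 3803 in Bmal1;CKO. Those of T and NK cells, led by Cd4 and Cd8a, reached 405 to 655 and 387 to 485, with Ncr1 at 0 reads. Monocyte and neutrophil markers, led by Plac8 and Ly6c2, reached 3.69 to 150.3 and 41.5 to 184, with Ly6g at 0 reads. Markers of pericytes (led by Rgs5 and Kcnj8), rods, Müller glia and astrocytes (Rlbp1 and Glul) and erythroid cells (Hbb-bs and Hbb-bt) were also present, with sums that overlapped between the groups. The rod sum was 380698 to 435149 normalized counts in control and 255328 to 483589 in Bmal1;CKO, above the endothelial sum in each library. Of 8 rod markers, 7 were lower and 1 higher (median -0.26, and 0.095 without Bmal1;CKO library 4). With limma-trend, 1 of those lower passed the unadjusted threshold of 0.05, against 1.75% of all tested genes. Groups did not overlap in 1 lower rod marker and 1 lower pericyte marker, against 4.54% of all tested genes. The part of these cells in the levels of the MHC genes was not tested.

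**Figure D5:**
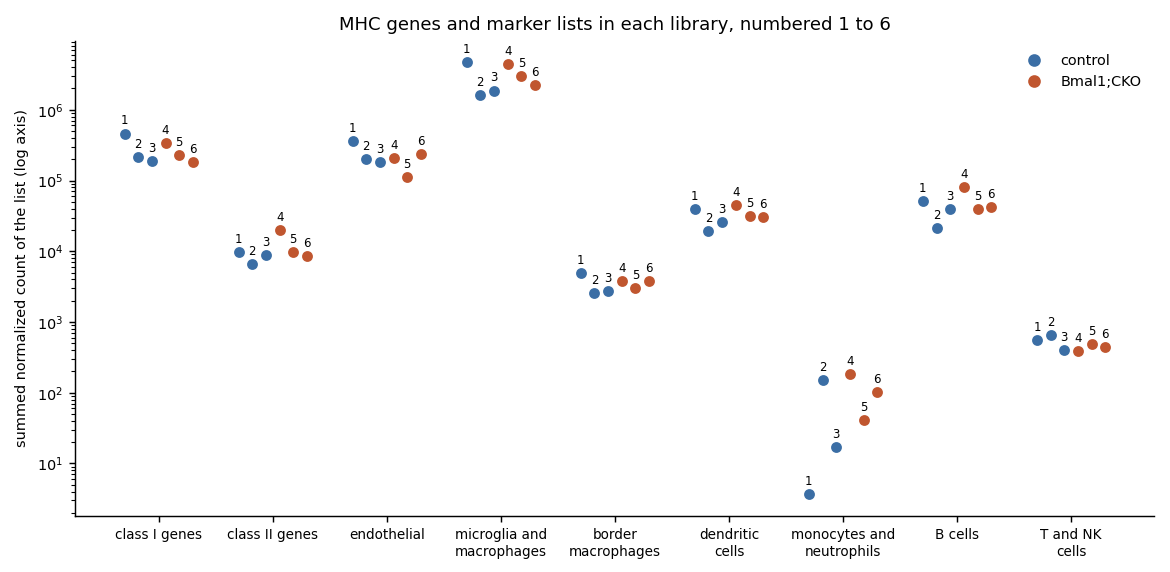
Summed normalized counts, on a log axis, of the 5 class I and 5 class II genes and of the marker lists of endothelial and immune cells in each library. Points are libraries, with controls numbered 1 to 3 and Bmal1;CKO 4 to 6. The microglial sum is above the endothelial sum in each library, and control library 1 and Bmal1;CKO library 4 have the highest class I and microglial sums.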

How the data were processed

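RNA-seq of sorted retinal VECs was analyzed in 3 control and 3 Bmal1;CKO libraries. The authors amplified total RNA (Smart v4, Nextera XT), used FastQC and Trimmomatic before alignment by Bowtie (mm10, Ensembl GRCm38 v87), obtained gene counts from featureCounts and deposited counts divided by DESeq2 size factors, a signal called normalized count here; versions of the tools are not given in the sources used here. The deposited table also holds 6 columns of the authors' own comparison (mean, fold change, p-values), which were not used. Its columns are numbered 1 to 3 for tdtom and 4 to 6 for Bmal1, whereas the labels number the Bmal libraries 1 to 3 and the tdTom libraries 4 to 6. Genotypes were taken from the column names, on which the direction of each difference rests, and no column was tied to an animal. Dividing each column by its smallest step gave whole reads for 100% of values (tolerance 0.01); the size factors were 0.711 to 1.40. Nothing states that the animals came from separate litters, so p-values measure the spread between these libraries.

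Genes reaching 10 reads in 3 or more libraries were tested with limma-trend on log2(normalized count + 1) in a model of genotype alone (limma 3.58.1, R 4.3.3) and Benjamini-Hochberg adjustment over all 20459 tested genes. The pseudocount understates the difference of low genes, whereas a single library near 0 moves a mean of log2 values far, and values of low genes can be larger here than in edgeR or DESeq2. The test was tested on simulated data. The alternatives tried were a pseudocount of 0.5 or 10, TMM-scaled log2 CPM, edgeR 4.0.16 with TMM or DESeq2 size factors, limma-voom, DESeq2 1.42.0, other filters on reads and each library left out. Depth was 71145068 to 104017800 reads on genes; limits for counts of 0 cover counting error only.

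Members and gene lists were chosen with earlier results of these data known. Genes named beside the 10 members were those of each presentation list at an unadjusted p under 0.05 or without overlap, the 2 most abundant of each list, marker genes at 0 reads, and the 5 genes most like each class. Tap2, H2-DMb1, H2-Ea, Nlrc5, Ifng, Flt3, Cd209a and Ccr7 were named after their values were seen. Some genes of the marker lists are not reported here.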

Additional observations from a re-analysis of the deposited data

How the results depend on the processing

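Of 144 log2 fold changes of the members under 15 alternatives, 138 kept their direction and stayed on the same side of the threshold, and the 6 that reversed all came from leaving out a library. These were H2-K1 (range -0.14 to 0.46) at -0.033 without control library 2, -0.0054 without control library 3 and -0.14 without Bmal1;CKO library 4, H2-D1 (range -0.19 to 0.51) at -0.19 without control library 2 and -0.14 without Bmal1;CKO library 4, and H2-Eb1 (range -0.070 to 3.03) at -0.070 without control library 1. With 1 library left out, the class I median ran from -0.14 to 0.51, the class II median from 0.76 to 2.65, the number of members at an unadjusted p under 0.05 from 0 to 1 (H2-T23 without control library 1, B2m without control library 3) and the number of genes called from 0 to 6, the last without control library 1. DESeq2 called 67 genes, and both a filter of 1 read in total and one of 10 reads in every library called 1, none of them a member. The filter of 10 reads in every library left 2 class II genes, H2-Ab1 and Cd74, whose median was 0.52. The class II median was 1.98 with a pseudocount of 1, 2.06 with 0.5, 1.21 with 10 and 0.78 in edgeR with TMM scaling. The median of all tested genes was 0.11 in limma-trend and -0.03 in edgeR and DESeq2, and under each scaling 9 of the 10 members were higher. No paired analysis was possible because the columns of the table do not carry the replicate numbers of the samples. Ciita, H2-Aa and H2-Eb1 had fewer than 10 reads in at least 1 library, which limits their precision, and the other 7 members had 10 or more in every library.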
